A study of Homo sapiens with 24 samples.

Results

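The 8 adhesion genes followed here were SELP, SELPLG, CEACAM1, PECAM1, ICAM1, ICAM3, CD44 and CD47, taken by gene symbol as 8 of the 60655 genes in the deposited count table. They were measured by poly(A) RNA-seq in 2 human leukaemia lines, in 8 groups of 3 libraries each. The treated groups were NB4 ATRA (1.0 µM all-trans retinoic acid), NB4 ATO (0.8 µM arsenic trioxide), NB4 ATRA+ATO, HL-60 ATRA, HL-60 ATO and HL-60 ATRA+ATO, all exposed for 48 h. Drug doses within the combination are not stated. The references were untreated NB4 and untreated HL-60, whose time in culture the labels do not give. NB4 is an acute promyelocytic leukaemia line, and HL-60 is labelled as a promyeloblast line. Each disease type is thus represented by 1 line, and both lines are labelled wild type. The series was made to study the joint action of the 2 drugs on promyelocytic cells, with HL-60 as a line of another acute myeloid leukaemia.

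Leukocytes leave the blood in steps. Selectins and their sugar-bearing ligands make the first, rolling contacts, after which integrins on the leukocyte bind immunoglobulin-like molecules such as the ICAMs to hold the cell still, and PECAM1 at the junctions of endothelial cells takes part in passage between them. In acute promyelocytic leukaemia, ATRA drives the blasts towards granulocytes, and adhesion of the maturing cells to vessels and to each other is a known clinical concern. SELP is the selectin of platelets and endothelium, SELPLG (PSGL-1) its main leukocyte ligand, CEACAM1 a homophilic receptor with an inhibitory tail, ICAM1 and ICAM3 ligands of the beta-2 integrins, CD44 the hyaluronan receptor and CD47 the ligand of SIRPA that restrains phagocytosis.

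By GENCODE release 29 on GRCh38, SELP (ENSG00000174175.17) lies on chromosome 1, positions 169588849 to 169630193, minus strand. SELPLG (ENSG00000110876.10) lies on chromosome 12, 108622277 to 108633959, minus strand. CEACAM1 (ENSG00000079385.22) lies on chromosome 19, 42507304 to 42561234, minus strand. PECAM1 (ENSG00000261371.6) lies on chromosome 17, 64319415 to 64413776, minus strand. ICAM1 (ENSG00000090339.9) lies on chromosome 19, 10270835 to 10286615, plus strand, with ICAM4 and ICAM5 directly after it. ICAM3 (ENSG00000076662.10) lies further along the same arm, 10333776 to 10339823, minus strand. CD44 (ENSG00000026508.20) lies on chromosome 11, 35138870 to 35232402, plus strand. CD47 (ENSG00000196776.16) lies on chromosome 3, 108043094 to 108091862, minus strand. All 8 are annotated as protein coding.

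RefSeq promoter windows (GRCh38.p14, 250 bases before to 50 after the RefSeq gene start) were found for 6 of the 8 genes. SELPLG and PECAM1 had no entry. RefSeq starts differ from the GENCODE gene ends given above. The windows of ICAM1, CEACAM1, CD44 and CD47 lie wholly inside the GENCODE genes. The windows of ICAM1, SELP and CEACAM1 are shown because these 3 genes had the largest ATRA-treated to untreated differences of the 8. Capitals mark matches, on either strand, to the nuclear receptor half-site, to GGNNNTTCC (a form bound by NF-kB proteins) or to TTCNNNGAA (a form bound by STAT proteins). A half-site was spelled AGGTCA in its main form, with GGGTCA searched as a first variant, AGTTCA as another and GGTTCA as the last. None of the marked matches overlapped.
ICAM1, chr19:10270870-10271169, plus strand: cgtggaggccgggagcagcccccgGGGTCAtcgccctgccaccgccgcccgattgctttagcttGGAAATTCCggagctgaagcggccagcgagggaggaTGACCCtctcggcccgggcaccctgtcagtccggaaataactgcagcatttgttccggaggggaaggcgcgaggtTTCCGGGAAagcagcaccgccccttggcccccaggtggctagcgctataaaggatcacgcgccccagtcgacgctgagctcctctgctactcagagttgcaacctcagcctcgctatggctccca
SELP, chr1:169630075-169630374, minus strand: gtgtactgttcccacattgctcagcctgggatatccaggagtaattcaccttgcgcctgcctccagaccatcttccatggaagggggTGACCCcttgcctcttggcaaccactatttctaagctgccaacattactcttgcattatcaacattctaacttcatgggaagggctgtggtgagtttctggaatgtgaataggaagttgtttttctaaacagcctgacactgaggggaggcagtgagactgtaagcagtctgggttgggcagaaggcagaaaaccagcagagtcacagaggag
CEACAM1, chr19:42528432-42528731, minus strand: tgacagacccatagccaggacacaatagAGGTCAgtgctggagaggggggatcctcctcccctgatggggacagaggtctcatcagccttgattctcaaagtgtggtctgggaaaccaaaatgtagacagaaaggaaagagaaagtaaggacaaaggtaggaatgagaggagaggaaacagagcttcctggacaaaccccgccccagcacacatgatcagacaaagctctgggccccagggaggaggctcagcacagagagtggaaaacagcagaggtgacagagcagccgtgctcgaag
SELP held 1 half-site, from position -163 to -158 counted from the RefSeq gene start, and CEACAM1 held 1, from -222 to -217. ICAM1 held 2 half-sites, 1 GGNNNTTCC match from -186 to -178 and 1 TTCNNNGAA match from -75 to -67. Of 35116 RefSeq windows of the same length, 38.6% held a half-site, 20.1% a GGNNNTTCC match and 7.66% a TTCNNNGAA match. CD44 and CD47 held 1 half-site each, and the most upstream of the 3 ICAM3 windows held no match. Pairs of half-sites in the same direction, spaced by 1, 2 or 5 bases as retinoid receptor dimers bind them, were in 0.131%, 0.0399% and 0.0883% of all windows and in none of the 6. These matches describe the letters of the windows only.

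Total counts per library ran from 37811652 to 57795273. Levels are given as CPM, counts scaled to a common library size with edgeR's TMM factors. Differences are log2 changes with standard errors (SE) from edgeR's quasi-likelihood test, and "called" means a Benjamini-Hochberg adjusted p below 0.05 over all genes tested. As a check of the labelled cell type, 6 promyelocyte markers (MPO, ELANE, AZU1, PRTN3, CD33 and LYZ) were summed. Their sum was 9067 to 9730 CPM in untreated NB4 and 4573 to 5132 CPM in untreated HL-60. MPO alone averaged 8766 CPM in untreated NB4 and 2338 CPM in untreated HL-60, so the NB4 sum mainly reflects that 1 gene. ELANE was at or below 0.276 CPM in all NB4 libraries. Among replicates, NB4 ATRA 2 and 3 differed most (chi-square over its degrees of freedom 37.4). The labels give batch numbers 1 to 3, with 1 library of each group per batch, but do not say that the libraries came from separate cultures, so p-values measure the spread between these libraries, which may be technical.

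SELP was above the floor of 3 counts per library only in the 4 groups that had received ATRA. In NB4 ATRA+ATO the 3 libraries had 30.05, 32.6 and 40.0 CPM, in NB4 ATRA 21.1, 17.0 and 25.35 CPM, and in NB4 ATO 2 counts in 1 library and none in the other 2, against 0 counts in all 3 untreated NB4 libraries. In HL-60 ATRA+ATO they had 3.81, 5.72 and 5.11 CPM and in HL-60 ATRA 2.05, 2.15 and 1.36 CPM, against 0 counts in the ATO and untreated libraries. The groups with ATRA did not overlap those without it in either line, nor did they overlap one another. Set against a floor of 3 counts per untreated library, SELP was at least 512-fold higher in NB4 ATRA+ATO and at least 316.5-fold higher in NB4 ATRA than in untreated NB4 (adjusted p = 1.33e-16 and 9.32e-16). In HL-60 it was at least 70.4-fold higher with ATRA+ATO and at least 26.8-fold higher with ATRA (adjusted p = 3.96e-11 and 2.62e-09). Such floors cover counting error only. In bulk RNA, more cells that make a transcript and more transcript per cell cannot be told apart. SELP and CEACAM1 passed the filter on low counts only through their ATRA groups, so a difference was built into their being tested.

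Since SELP is known from platelets and endothelium, markers of these cells are set beside it. Of 6 megakaryocyte and platelet markers, PF4 and GP9 had 0 counts in all 24 libraries, and PPBP and ITGA2B were the 2 above 1 CPM in some group. Their sum was 15.9 to 19.2 CPM in NB4 ATRA+ATO, 5.42 to 5.98 in NB4 ATRA and 8.90 to 12.9 in NB4 ATO, against 1.36 to 2.15 in untreated NB4. In HL-60 the sum stayed at or below 2.15 CPM in every library. Of 7 endothelial markers ROBO4 was at 0 throughout, and the sum was 1.75 to 13.5 CPM over NB4 libraries and 0.718 to 3.83 CPM over HL-60 libraries. In NB4 this sum was nearly all TIE1, as no other of the 7 averaged above 0.0839 CPM in any group. The part of either marker set in the SELP level was not tested.

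SELE, the endothelial selectin, lies on chromosome 1 as SELP does and had 0 counts in every library.

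SELPLG, the ligand that SELP binds, moved in opposite directions in the 2 lines under the combination. NB4 ATRA libraries had 81.6, 74.4 and 78.7 CPM, NB4 ATO 59.5, 55.7 and 62.2, and NB4 ATRA+ATO 78.9, 72.4 and 56.3, against 26.1, 24.4 and 28.2 CPM in untreated NB4. Every treated NB4 library was above every untreated one. The log2 changes were 1.59 ± 0.097 with ATRA, 1.16 ± 0.096 with ATO and 1.39 ± 0.097 with ATRA+ATO (adjusted p = 3.09e-12, 4.35e-09 and 1.92e-11). In HL-60, ATRA+ATO gave 6.23, 5.01 and 6.37 CPM, ATRA 21.5, 23.8 and 21.5 and ATO 16.5, 18.0 and 17.6, against 18.2, 18.1 and 15.1 CPM in untreated HL-60. The HL-60 ATRA+ATO libraries were below all others of that line. SELPLG fell there by 1.54 on the log2 scale (SE 0.11, adjusted p = 2.40e-11), while with ATRA alone it rose by 0.39 ± 0.096 (adjusted p = 0.00195); with ATO alone the change was 0.035 ± 0.097 and was not called (adjusted p = 0.834).

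PSGL-1 binds selectins only once it carries fucosylated, sialylated sugars and sulfated tyrosines, so the 10 genes of that synthesis were counted with it. In NB4, 4 rose and 3 fell with ATRA, 2 rose and 5 fell with ATO, and 4 rose and 5 fell with ATRA+ATO. Of all genes tested in NB4, 31.3% rose and 28.6% fell with ATRA, 21.2% and 19.6% with ATO, and 35.4% and 32.8% with ATRA+ATO. In HL-60, 2 rose and 6 fell with ATRA, 4 rose and 2 fell with ATO, and 3 rose and 5 fell with ATRA+ATO. Of all genes tested in HL-60, 25.2% rose and 23.3% fell with ATRA, 16.5% and 12.1% with ATO, and 30.7% and 29.7% with ATRA+ATO; the counts of the lists that follow stand against the same shares. The list's median log2 change ran from -0.32 in HL-60 ATRA to 0.15 in NB4 ATRA, where all genes tested had medians of 0.0095 and 0.028. FUT7, the fucosyltransferase that completes sialyl Lewis x in leukocytes, averaged 0.147 ± 0.0885 CPM in HL-60 ATRA+ATO, 0.914 ± 0.266 in HL-60 ATRA and 7.70 ± 0.155 in HL-60 ATO, against 13.1 ± 1.5 CPM in untreated HL-60. These were log2 changes of -6.36, -3.82 and -0.76 (adjusted p = 1.20e-15, 8.49e-14 and 0.000609). FUT4, the other myeloid fucosyltransferase, fell by 1.28 in HL-60 ATRA+ATO and by 0.87 in NB4 ATRA+ATO (adjusted p = 4.63e-15 and 1.10e-11). In NB4 ATRA, however, FUT4 averaged 154 ± 3.24 CPM, against 133 ± 4.70 CPM in untreated NB4. The sialyltransferase gene ST3GAL4 fell by 1.79 in HL-60 ATRA+ATO and by 1.28 in HL-60 ATRA, and ST3GAL6 by 2.01 in NB4 ATRA (adjusted p = 3.13e-17, 1.49e-14 and 1.19e-11). GCNT1, which starts the core branch that carries the ligand sugar, fell by 0.43 in NB4 ATO (adjusted p = 9.70e-05). With ATRA in NB4 it averaged 31.6 ± 0.267 CPM, against 26.0 ± 1.86 CPM in untreated NB4. B4GALT1, a galactosyltransferase, rose by 1.79 ± 0.070 in NB4 ATRA and 1.74 ± 0.070 in NB4 ATRA+ATO (adjusted p = 1.22e-15 and 1.31e-15). It averaged 85.95 ± 4.09 CPM in HL-60 ATRA+ATO, against 44.5 ± 3.11 CPM in untreated HL-60. C1GALT1C1, also on the list, averaged 27.7 ± 1.26 and 16.9 ± 0.756 CPM in these 2 groups.

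Other carriers of selectin ligand sugars were also counted. Of 7 listed, 5 were measured; 3 rose and 2 fell in NB4 with ATRA and with ATRA+ATO, and 1 rose and 2 fell with ATO. In HL-60, 2 rose with ATRA, 2 rose and 1 fell with ATO, and 1 rose and 3 fell with ATRA+ATO. SPN (CD43), the abundant sialomucin, rose by 0.67 ± 0.058 in NB4 ATRA and 0.48 ± 0.058 in NB4 ATO but fell by 0.37 in HL-60 ATRA+ATO (adjusted p = 1.23e-09, 9.78e-07 and 9.36e-09). PODXL (podocalyxin) fell by 2.00 in NB4 ATRA and by 2.5 in NB4 ATRA+ATO (adjusted p = 1.78e-08 and 4.20e-10), and its relative PODXL2 fell by 1.27 in NB4 ATRA+ATO (adjusted p = 3.04e-09). CD164, a sialomucin of progenitors, rose by 0.76 ± 0.044 in HL-60 ATRA+ATO (adjusted p = 8.03e-13). GLG1, known as an E-selectin ligand in myeloid cells, rose by 0.21 ± 0.045 in HL-60 ATRA (adjusted p = 0.000421).

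**Figure D1:**
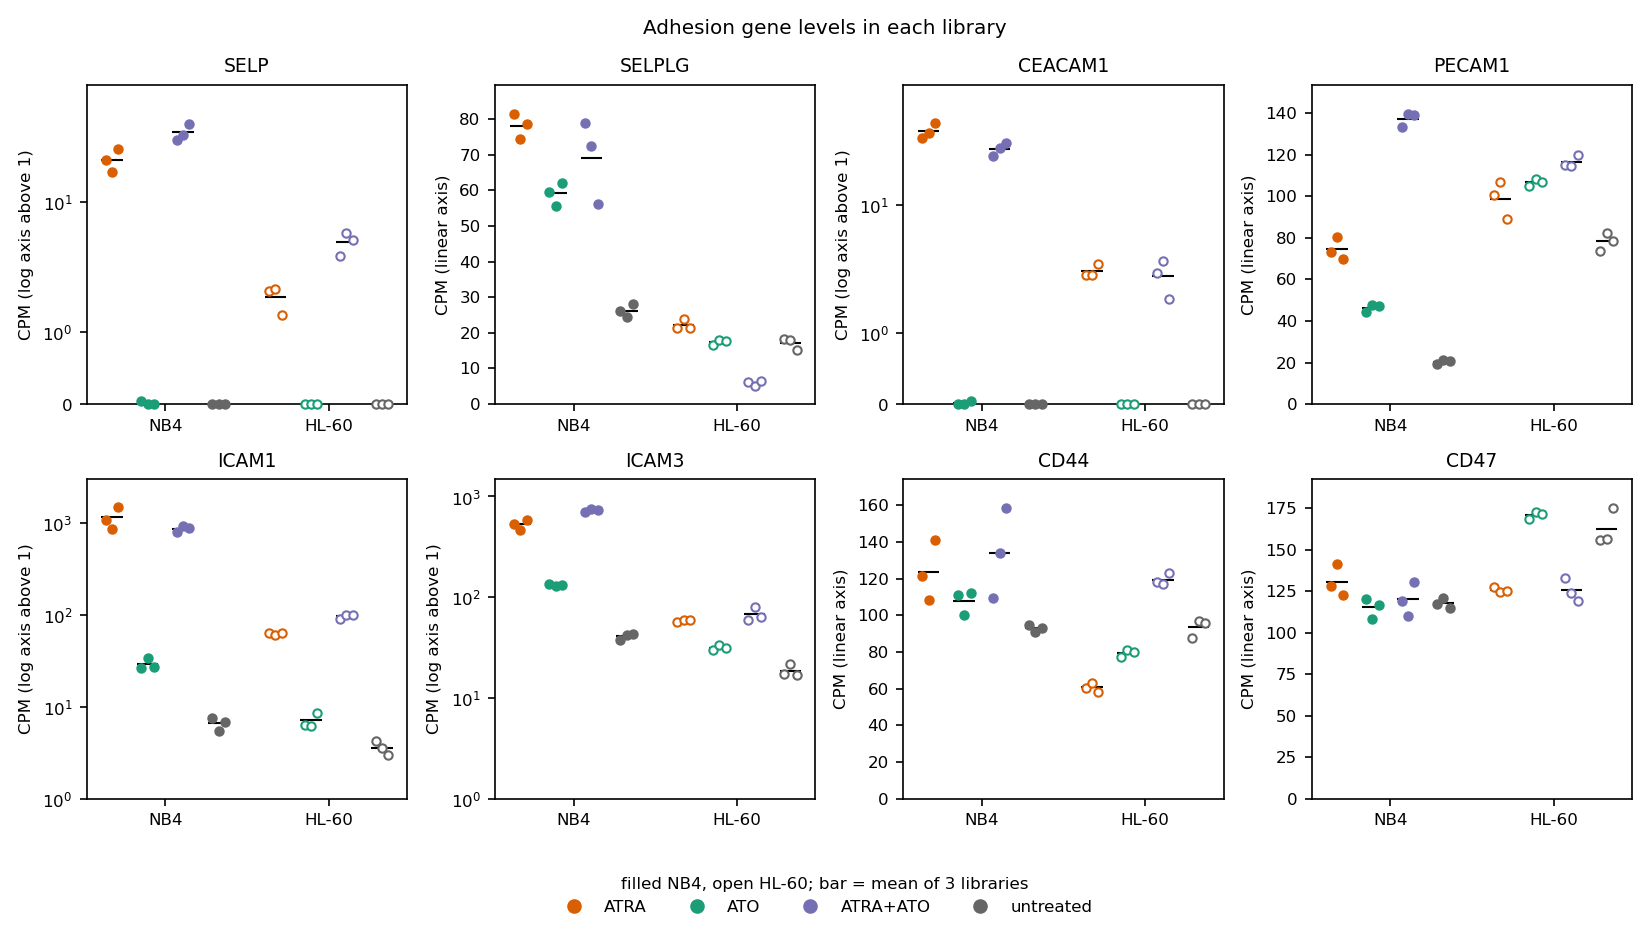
Level of each of the 8 genes in every library, in CPM, with NB4 groups at the left (filled) and HL-60 groups at the right (open); the bar is the mean of 3 libraries, and SELP, CEACAM1, ICAM1 and ICAM3 have a log axis above 1 CPM. SELP and CEACAM1 sit at or near 0 without ATRA, SELPLG is lowest in HL-60 ATRA+ATO (5.01 to 6.37 CPM), and CD47 stays between 108 and 175 CPM.

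CEACAM1, like SELP, was above the floor only in the 4 groups with ATRA, but its order within NB4 was the reverse. NB4 ATRA libraries had 33.5, 36.7 and 44.0 CPM, NB4 ATRA+ATO 24.2, 28.3 and 30.6, and NB4 ATO 2 counts in 1 library, against 0 counts in untreated NB4. HL-60 ATRA libraries had 2.86, 2.83 and 3.47 CPM and HL-60 ATRA+ATO 2.94, 3.64 and 1.84, against 0 counts in HL-60 ATO and untreated HL-60. The NB4 ATRA libraries were all above the NB4 ATRA+ATO libraries, whereas the 2 HL-60 groups with ATRA overlapped. CEACAM1 was at least 569.6-fold higher in NB4 ATRA and at least 414-fold higher in NB4 ATRA+ATO than in untreated NB4 (adjusted p = 1.80e-17 and 3.73e-17). In HL-60 it was at least 44.05-fold higher with ATRA and at least 40.5-fold higher with ATRA+ATO (adjusted p = 7.30e-10 and 5.48e-10). As for SELP, a difference was built into CEACAM1 being tested, since it passed the filter only through its groups with ATRA. The CEACAM genes are close paralogs on chromosome 19, and how reads shared between them were counted is not given in the sources used here, so their levels are uncertain to that extent.

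Of 8 further CEACAM genes, 3 passed the filter in each line. In NB4, 3 rose with ATRA, none changed with ATO and 1 rose with ATRA+ATO; in HL-60, 2 rose with ATRA, 1 with ATO and 1 with ATRA+ATO (2 with the batch as a block). Of all genes, 31.3% rose in NB4 ATRA and 25.2% in HL-60 ATRA. CEACAM3 had 65 counts in NB4 ATRA, 0 in NB4 ATO and 4 in NB4 ATRA+ATO, against 0 in untreated NB4, so it passed the filter through NB4 ATRA alone and had to differ there. The list's counts are therefore a description only. CEACAM3, a granulocyte receptor for bacteria, was at least 7.77-fold higher in NB4 ATRA than in untreated NB4, where it had 0 counts, but its level there was only 0.519 ± 0.106 CPM. CEACAM21 averaged 1.62 ± 0.479 CPM in HL-60 ATRA, against 0.334 ± 0.0411 CPM in untreated HL-60, a log2 change of 2.27 ± 0.36 (adjusted p = 1.28e-05). CEACAM4 rose by 1.74 ± 0.36 in HL-60 ATRA (adjusted p = 0.000319), and CEACAM5 and CEACAM7 had 0 counts in all libraries. None of these 8 averaged above 1.90 CPM in any group, where CEACAM1 reached 38.1 CPM.

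ICAM1, the inducible ligand of the beta-2 integrins, had the largest rise of any of the 8 genes that was detected in untreated cells. NB4 ATRA libraries had 1084, 861 and 1497 CPM, NB4 ATRA+ATO 796, 924 and 889, and NB4 ATO 26.3, 33.7 and 27.2, against 7.49, 5.44 and 6.91 CPM in untreated NB4. The treated libraries were all above the untreated ones, and the 2 groups with ATRA overlapped each other. The log2 changes were 7.46 ± 0.18 with ATRA (176-fold), 2.12 ± 0.16 with ATO (4.35-fold) and 7.03 ± 0.18 with ATRA+ATO (131-fold), with adjusted p = 3.44e-19, 1.25e-09 and 6.04e-19. In HL-60, ATRA+ATO gave 90.1, 101 and 101 CPM, ATRA 63.4, 59.7 and 64.3 and ATO 6.40, 6.24 and 8.65, against 4.2, 3.54 and 3.02 CPM in untreated HL-60. No 2 HL-60 groups overlapped. The log2 changes were 4.78 ± 0.11 with ATRA+ATO, 4.13 ± 0.11 with ATRA and 1.00 ± 0.13 with ATO (adjusted p = 5.75e-20, 1.56e-18 and 2.56e-06). ICAM1 shares 815 bases, or 22.0% of its exonic length, with the antisense gene AC011511.5, which had 42 counts over the 24 libraries.

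ICAM3, the ICAM of resting leukocytes, moved the same way with a smaller fold from a higher start. NB4 ATRA+ATO libraries had 695, 743 and 727 CPM, NB4 ATRA 531, 465.5 and 588, and NB4 ATO 135, 128 and 131, against 37.4, 42.1 and 42.8 CPM in untreated NB4. No 2 NB4 groups overlapped. The log2 changes were 4.14 ± 0.082 with ATRA+ATO, 3.71 ± 0.081 with ATRA and 1.67 ± 0.076 with ATO (adjusted p = 8.64e-21, 4.34e-20 and 2.73e-13). HL-60 ATRA+ATO libraries had 59.6, 79.9 and 64.2 CPM, HL-60 ATRA 57.2, 59.4 and 59.0, and HL-60 ATO 30.1, 33.4 and 31.5, against 17.4, 21.8 and 16.8 CPM in untreated HL-60. Here too each treated group was above the untreated one, with log2 changes of 1.88 ± 0.099, 1.66 ± 0.099 and 0.77 ± 0.099 (adjusted p = 1.43e-13, 2.37e-12 and 3.16e-06). ICAM3 shares 2101 bases, 71.2% of its exonic length, with the antisense gene AC114271.1, and whether counting used the strand is not given in the sources used here, so reads of the 2 genes cannot be told apart. The counts assigned to AC114271.1 averaged 15.9 ± 0.243 CPM in NB4 ATRA+ATO, against 23.9 ± 0.999 CPM in untreated NB4. They were lower where those assigned to ICAM3 were higher, but this does not give the direction of either gene apart.

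Of the neighbouring ICAM genes, ICAM4 was higher with ATRA in both lines, and ICAM5 was higher in NB4 ATRA+ATO. ICAM4, known from erythroid cells, averaged 16.6 ± 2.49 CPM in NB4 ATRA and 51.2 ± 1.61 in NB4 ATRA+ATO, against 3.80 ± 0.429 CPM in untreated NB4, log2 changes of 2.15 ± 0.12 and 3.74 ± 0.12 (adjusted p = 8.10e-13 and 3.12e-17). ICAM5 was 4.09 ± 0.345 CPM in NB4 ATRA+ATO, against 0.236 ± 0.137 CPM in untreated NB4, and rose by 4.09 ± 0.36 (adjusted p = 1.25e-09). Its untreated libraries alone were too low to pass the filter on low counts. A difference was therefore partly built into ICAM5 being tested. ICAM4 rose by 2.08 ± 0.22 in HL-60 ATRA and 2.95 ± 0.22 in HL-60 ATRA+ATO (adjusted p = 4.60e-08 and 6.50e-11). Of the 12 other ICAM and junctional genes, 6 were measured: 4 rose and 1 fell in NB4 ATRA and in NB4 ATRA+ATO, 1 rose and 1 fell in NB4 ATO, 5 rose in HL-60 ATRA and in HL-60 ATRA+ATO, and 2 rose in HL-60 ATO. F11R (JAM-A), a junction molecule of platelets and epithelia, rose by 2.10 ± 0.090 in NB4 ATRA and 0.71 ± 0.090 in NB4 ATO, and by 0.53 ± 0.065 in HL-60 ATRA and 0.70 ± 0.065 in HL-60 ATO (adjusted p = 5.98e-15, 1.79e-06, 3.90e-07 and 3.36e-08). CD58, the CD2 ligand, rose by 1.35 ± 0.098 in HL-60 ATRA+ATO (adjusted p = 4.02e-11), and CD99L2 fell by 0.44 in NB4 ATO (adjusted p = 0.00015).

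PECAM1, a homophilic receptor with an inhibitory tail, was lower in untreated NB4 than in untreated HL-60, and of the treated groups it was higher in NB4 with ATRA+ATO only. NB4 ATRA+ATO libraries had 133, 139.8 and 139 CPM, NB4 ATRA 73.1, 80.3 and 69.9, and NB4 ATO 44.3, 47.5 and 47.3, against 19.1, 21.1 and 20.7 CPM in untreated NB4. No 2 NB4 groups overlapped, and the log2 changes were 2.75 ± 0.074, 1.90 ± 0.072 and 1.18 ± 0.072 (adjusted p = 1.09e-18, 7.36e-16 and 3.07e-11). HL-60 ATRA+ATO libraries had 115, 115 and 119.9 CPM, HL-60 ATRA 100.4, 107 and 89.2, and HL-60 ATO 105, 108.5 and 107, against 73.7, 82.4 and 78.6 CPM in untreated HL-60. The HL-60 changes were small, 0.59 ± 0.060, 0.34 ± 0.060 and 0.46 ± 0.060 (adjusted p = 1.32e-08, 4.70e-05 and 3.90e-06). Beside PECAM1, which endothelium also makes, the sum of the 7 endothelial markers was 10.8 to 13.5 CPM in NB4 ATRA+ATO, 1.75 to 3.04 in NB4 ATRA and 9.79 to 10.6 in NB4 ATO, against 2.73 to 3.67 CPM in untreated NB4. Nearly all of this was TIE1, which averaged 11.7, 2.13 and 10.2 CPM in these treated groups and 3.25 CPM in untreated NB4. No other of the 7 averaged above 0.0839 CPM in NB4. The part of this sum in the PECAM1 level was not tested.

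CD44 separated the treatments in HL-60. HL-60 ATRA+ATO libraries had 118, 117 and 123 CPM, HL-60 ATRA 60.5, 63.1 and 58.4, and HL-60 ATO 77.2, 81.2 and 79.9, against 87.8, 97.1 and 96.1 CPM in untreated HL-60. The combination was above untreated cells and both single drugs were below them. CD44 rose by 0.37 ± 0.053 with ATRA+ATO (adjusted p = 2.75e-06), fell by 0.62 with ATRA (adjusted p = 1.86e-09) and fell by 0.23 with ATO (adjusted p = 0.00254), the last with adjusted p = 0.0512 in a fit of all 24 libraries. In NB4, ATRA+ATO gave 109.5, 134 and 158 CPM, ATRA 122, 108 and 141 and ATO 111, 100.2 and 112, against 94.7, 90.9 and 93.3 CPM in untreated NB4. The treated NB4 groups overlapped each other but not the untreated one. These were log2 changes of 0.52 ± 0.10 and 0.43 ± 0.10 with ATRA+ATO and ATRA (adjusted p = 0.000113 and 0.000947) and 0.20 ± 0.10 with ATO, which was not called (adjusted p = 0.127; 0.0197 without TMM scaling, 0.018 with every gene that had a read, and 0.00137 with the 2 groups alone).

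CD47 varied least. The HL-60 ATRA libraries had 125 to 128 CPM, the HL-60 ATRA+ATO libraries 119 to 133 and the HL-60 ATO libraries 169 to 173, against 156 to 175 CPM in untreated HL-60. It fell by 0.36 with ATRA and by 0.36 with ATRA+ATO (adjusted p = 3.81e-06 and 2.95e-06), and with ATO the change was 0.087 ± 0.051, not called (adjusted p = 0.228). In NB4 the libraries of all groups lay between 108 and 142 CPM. The NB4 ATRA log2 change of 0.17 ± 0.070 was called (adjusted p = 0.0383) but was lost with the batch as a block (adjusted p = 0.0559), without TMM scaling (0.219), with every gene that had a read (0.109), with the 2 groups alone (0.0766) and without any 1 of NB4 ATRA replicates 1 and 2 or untreated NB4 replicates 1, 2 and 3 (0.0724 to 0.22). With ATRA+ATO it was 0.021 ± 0.070 and with ATO -0.043 ± 0.070 (adjusted p = 0.805 and 0.667).

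**Figure D2:**
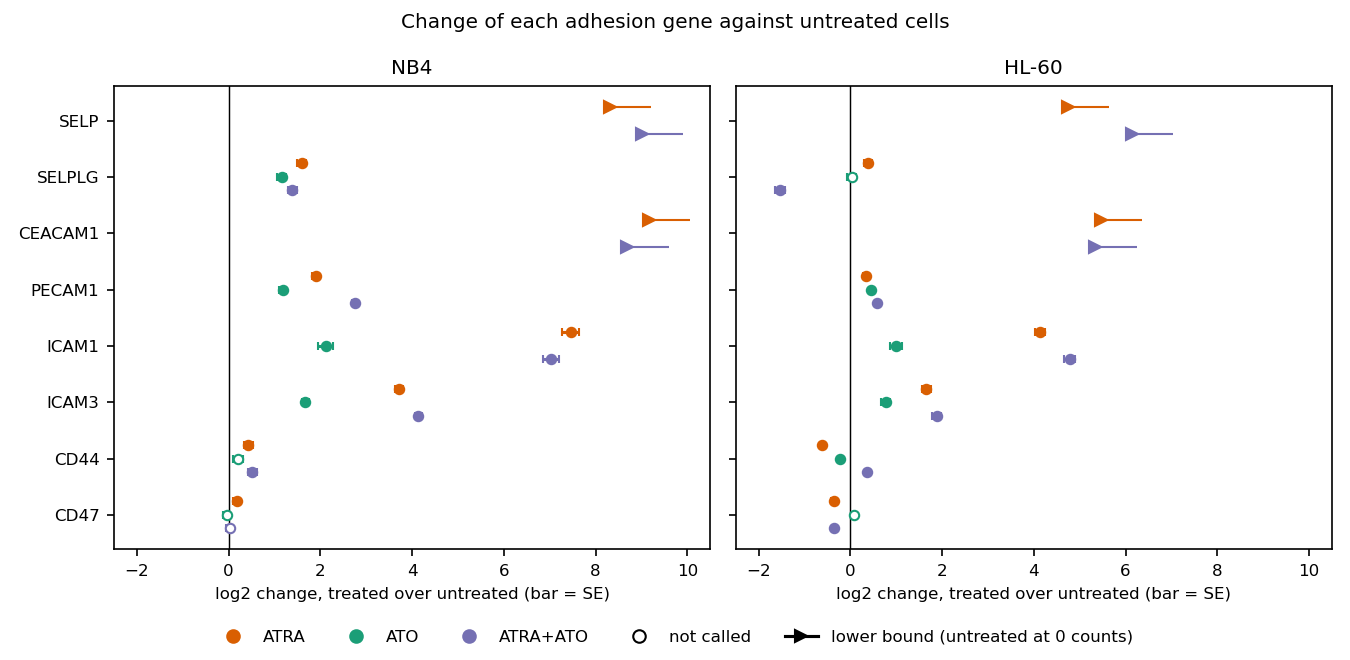
Log2 change of each gene in treated over untreated cells of NB4 (left) and HL-60 (right), with SE bars; open points were not called, and arrows are lower bounds where untreated cells had 0 counts. In NB4 no gene was called lower, whereas in HL-60 CD44, CD47 and SELPLG each had a called fall in at least 1 treatment.

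Counted over the 8 genes, 8 rose in NB4 ATRA, where 31.3% of all 16370 genes tested rose and 28.6% fell. In NB4 ATO, 4 of the 6 that could be compared rose and none fell, where 21.2% of all genes rose and 19.6% fell; this background moved with scaling, as 51.9% of calls were rises with TMM and 69.0% without it. In NB4 ATRA+ATO, 7 rose, where 35.4% rose and 32.8% fell. In HL-60 ATRA, 6 rose and 2 fell, where 25.2% of 15895 genes rose and 23.3% fell. In HL-60 ATO, 3 of 6 rose and 1 fell, where 16.5% rose and 12.1% fell. In HL-60 ATRA+ATO, 6 rose and 2 fell, where 30.7% rose and 29.7% fell. The rises include SELP and CEACAM1 in the 4 groups with ATRA, whose entry to the test rested on those groups.

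The integrins and other binding partners were counted likewise. Of 10 listed partners 9 were measured in NB4; 8 rose with ATRA, 7 rose and 1 fell with ATO, and 9 rose with ATRA+ATO, with median log2 changes of 3.30, 1.05 and 3.66, where 31.3%, 21.2% and 35.4% of all genes rose. In HL-60 all 10 were measured; 8 rose with ATRA, 6 rose and 2 fell with ATO, and 8 rose and 1 fell with ATRA+ATO, with medians of 2.15, 0.47 and 1.92, where 25.2%, 16.5% and 30.7% of all genes rose. ITGAM (CD11b, the alpha chain of Mac-1) averaged 252 ± 30.6 CPM in NB4 ATRA and 328 ± 7.29 in NB4 ATRA+ATO, against 7.19 ± 0.402 CPM in untreated NB4, log2 changes of 5.15 ± 0.092 and 5.50 ± 0.093 (adjusted p = 1.54e-21 and 5.87e-22). ITGAX (CD11c) rose by 5.48 ± 0.11 in NB4 ATRA+ATO and 3.91 ± 0.098 in HL-60 ATRA+ATO (adjusted p = 1.04e-20 and 1.71e-19). ITGAL, the alpha chain of LFA-1 and the main partner of ICAM1 and ICAM3, averaged 163 ± 5.92 CPM in HL-60 ATO, against 212 ± 9.03 CPM in untreated HL-60, a fall of 0.36 (adjusted p = 3.01e-06). In HL-60 ATRA+ATO it had 79.2 ± 1.28 CPM and fell by 1.40, while in NB4 ATRA it rose by 2.38 ± 0.097 (adjusted p = 5.02e-17 and 2.68e-15). CD38, a partner of PECAM1, rose by 2.78 ± 0.060 in NB4 ATRA and 3.94 ± 0.074 in HL-60 ATRA (adjusted p = 3.45e-20 and 2.18e-21). THBS1, the thrombospondin that binds CD47, rose by 4.31 ± 0.11 in HL-60 ATRA (adjusted p = 9.88e-19).

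Of 6 cytoplasmic partners, 1 rose and 5 fell in NB4 ATRA and in NB4 ATRA+ATO, where 28.6% and 32.8% of all genes fell. In NB4 ATO, 1 rose and 3 fell, where 19.6% of all genes fell. In HL-60, 2 rose and 2 fell with ATRA, 1 rose and 3 fell with ATO, and 1 rose and 1 fell with ATRA+ATO. PTPN6 (SHP-1), the phosphatase that the inhibitory tails of CEACAM1 and PECAM1 recruit, rose in all 6 comparisons, by 1.46 ± 0.063 in NB4 ATRA and 1.84 ± 0.054 in HL-60 ATRA+ATO (adjusted p = 7.26e-15 and 3.27e-18). MSN (moesin), which ties CD44, ICAM3 and PSGL-1 to actin, fell by 0.45 in NB4 ATRA and by 0.65 in NB4 ATRA+ATO (adjusted p = 3.19e-07 and 5.56e-10), and its relative EZR (ezrin) fell by 1.22 in HL-60 ATRA+ATO (adjusted p = 5.25e-16). PTPN11 (SHP-2) fell by 0.31 in NB4 ATO (adjusted p = 0.000395).

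Enzymes that cut or modify these molecules showed no single direction. Of 7, 3 rose and 2 fell in NB4 ATRA, 1 rose and 2 fell in NB4 ATO, 3 rose and 3 fell in NB4 ATRA+ATO, 3 rose and 3 fell in HL-60 ATRA, 3 rose and 1 fell in HL-60 ATO, and 4 rose and 2 fell in HL-60 ATRA+ATO. ADAM17, a sheddase of surface proteins, rose by 1.64 ± 0.060 in HL-60 ATRA+ATO (adjusted p = 1.79e-16). MMP9, a gelatinase that binds CD44, fell in all 6 comparisons. It averaged 1.44 ± 0.183 CPM in NB4 ATRA+ATO, against 26.3 ± 4.60 CPM in untreated NB4, a fall of 4.2 (adjusted p = 8.20e-16). QPCT, a glutaminyl cyclase, rose by 3.08 ± 0.16 in HL-60 ATRA+ATO (adjusted p = 9.32e-14); its relative QPCTL is the enzyme known to modify CD47.

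**Figure D3:**
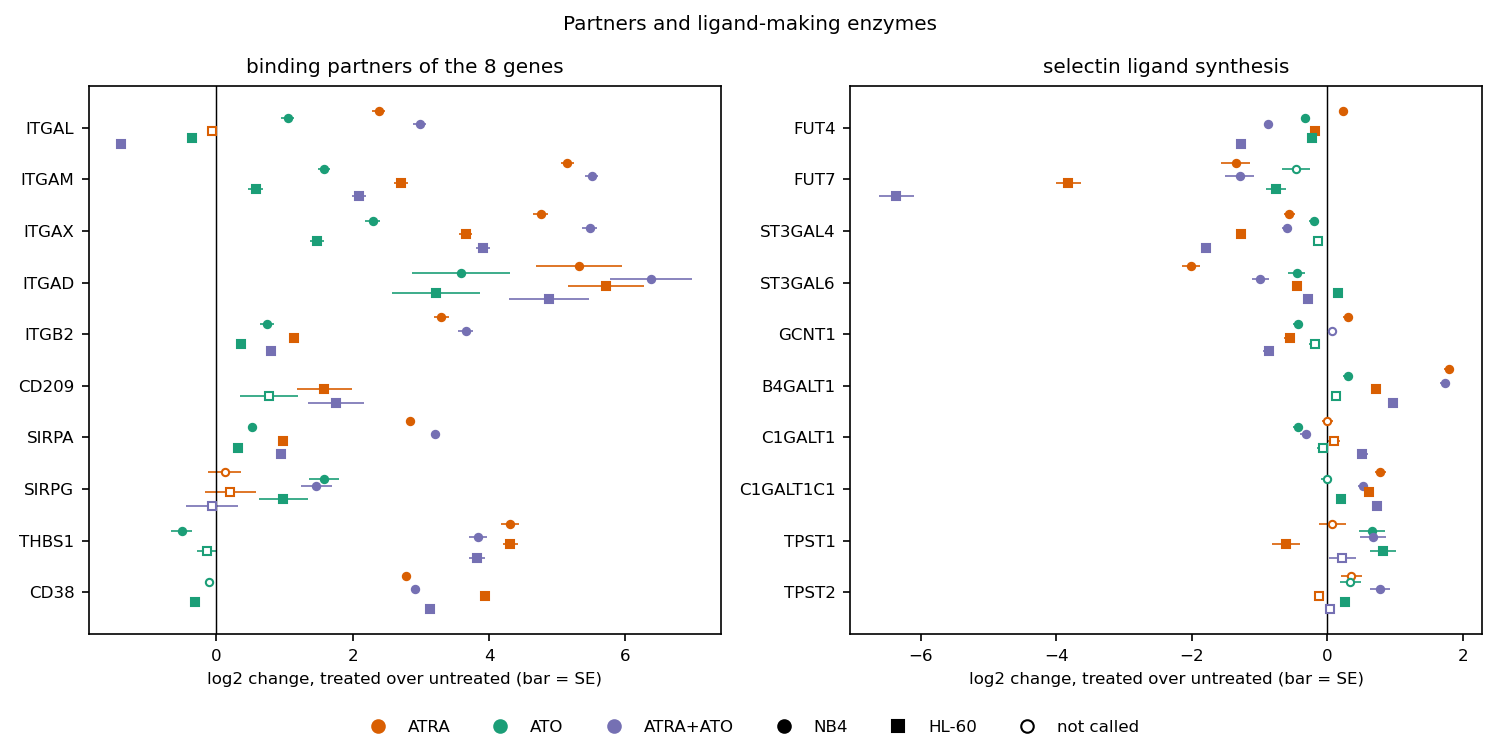
Log2 change with SE in treated over untreated cells for 10 binding partners (left) and 10 genes of selectin ligand synthesis (right); circles are NB4, squares HL-60, and open symbols were not called. Most partner symbols lie right of 0, while FUT7 lies left of 0 in all 6 comparisons, down to -6.36 in HL-60 ATRA+ATO.

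What the second drug added to ATRA differed among the 8 genes. In NB4, 3 were higher and 2 lower in ATRA+ATO than in ATRA, where 16.8% of all genes rose and 21.2% fell; rises were 44.3% of calls with TMM and 68.4% without, and dropping TMM moved the median of all genes up by 0.14. PECAM1 rose by 0.86 ± 0.068 (1.81-fold), SELP by 0.66 ± 0.14 (1.58-fold) and ICAM3 by 0.42 ± 0.072 (1.34-fold), with adjusted p = 3.16e-09, 0.000755 and 6.97e-05. CEACAM1 fell by 0.49 (SE 0.12, adjusted p = 0.00287). ICAM1 fell by 0.43 (SE 0.13, adjusted p = 0.014), but the libraries overlapped, and the call was lost with DESeq2 (adjusted p = 0.11), without TMM (0.0914), without NB4 ATRA+ATO replicate 1 (0.0821) and without NB4 ATRA replicate 3, the library of 1497 CPM (-0.18, adjusted p = 0.165). SELPLG (-0.20 ± 0.093, adjusted p = 0.0906) and CD47 (-0.15 ± 0.070, adjusted p = 0.0941) were not called, but SELPLG was without NB4 ATRA+ATO replicate 1 (0.0244) and CD47 without replicate 3 of that group (0.0388). In HL-60, 4 were higher and 1 lower, where 22% rose and 21.9% fell. SELP rose by 1.40 ± 0.27 (2.64-fold), CD44 by 0.98 ± 0.054, ICAM1 by 0.65 ± 0.087 and PECAM1 by 0.25 ± 0.060, and SELPLG fell by 1.92 (SE 0.11), with adjusted p = 0.000276, 1.34e-12, 2.21e-06, 0.0017 and 1.72e-12. ICAM3 missed the threshold (0.22 ± 0.093, adjusted p = 0.0546) and passed it with the batch as a block (0.0167), with DESeq2 (0.0443), with its size factors (0.044), with every gene that had a read (0.0117), with a 1 CPM filter (0.0478), with halved counts (0.036) and without HL-60 ATRA+ATO replicate 1 (0.0104).

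The combination was also set against ATO alone. In NB4, 7 of the 8 were higher in ATRA+ATO than in ATO, where 28.6% of all genes rose and 28.3% fell. The rises here and in HL-60 include SELP and CEACAM1, whose entry to the test rested on their groups with ATRA. ICAM1 was 30.0-fold higher (4.91 ± 0.16), ICAM3 5.52-fold (2.46 ± 0.076) and PECAM1 2.97-fold (1.57 ± 0.069), with adjusted p = 6.31e-17, 2.48e-17 and 1.40e-14. For SELP and CEACAM1, each with 2 counts over the NB4 ATO group, the ratios of counts were 2581 (95% exact interval 714 to 21319) and 2095 (579.6 to 17307). These intervals cover counting error only, and each pair of counts came from 1 library and may be 1 fragment counted as 2 mates. The fitted log2 value for SELP ran from 10.55 to 13.62 when 1 library was left out. CD44 (0.32 ± 0.10, adjusted p = 0.0105) and SELPLG (0.23 ± 0.093, adjusted p = 0.0369) rose with libraries that overlapped. SELPLG was not called without TMM (adjusted p = 0.0645) or without NB4 ATO replicate 1 or 2 or NB4 ATRA+ATO replicate 1 or 2 (0.0845 to 0.237). CD44 was not called without NB4 ATO replicate 2 (0.27, adjusted p = 0.0582) or NB4 ATRA+ATO replicate 3 (0.19, adjusted p = 0.108). In HL-60, 5 were higher and 2 lower, where 27.5% rose and 27% fell; rises were 50.5% of calls with TMM and 39.6% without. ICAM1 was 13.8-fold higher (3.79 ± 0.10, adjusted p = 1.30e-18) and CD44 1.51-fold higher (0.59 ± 0.053, adjusted p = 2.37e-09), while SELPLG fell by 1.57 and CD47 by 0.44 (adjusted p = 2.19e-11 and 1.55e-07). PECAM1 was not called (0.13 ± 0.059, adjusted p = 0.066), and passed with DESeq2 (0.0493), with halved counts (0.0358), with the 2 groups alone (0.0422) and without HL-60 ATRA+ATO replicate 2 (0.045).

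The interaction term gives the log2 change of the combination minus the sum of the 2 single-drug changes; SELP and CEACAM1 have none, being at the floor in 2 groups of each line. In NB4, 4 of 6 genes were called, all below the sum, where 18.7% of all genes were called in either direction. Of those calls over all genes only 32.9% were above the sum, and the median of all genes was -0.062. The values were -2.55 ± 0.21 for ICAM1, -1.36 ± 0.13 for SELPLG, -1.25 ± 0.10 for ICAM3 and -0.32 ± 0.098 for PECAM1 (adjusted p = 1.21e-08, 1.69e-07, 1.21e-08 and 0.0236). The PECAM1 call was lost without TMM, with every gene that had a read, and without NB4 ATO replicate 2 or 3, NB4 ATRA+ATO replicate 1 or untreated NB4 replicate 1 (adjusted p = 0.0527 to 0.109). In HL-60, 3 of 6 were called, where 32.5% of all genes were. Of those calls over all genes 44.2% were above the sum with TMM and 34.8% without it. CD44 was above the sum (1.21 ± 0.076), and SELPLG (-1.96 ± 0.14) and ICAM3 (-0.55 ± 0.14) were below it (adjusted p = 7.58e-11, 7.89e-10 and 0.00327). PECAM1 (-0.21 ± 0.084) and ICAM1 (-0.35 ± 0.15) missed the threshold (adjusted p = 0.0587 and 0.0883), PECAM1 passing it with the batch as a block (0.0464). Both passed without TMM (0.0167 and 0.0473), with every gene that had a read (0.0438 and 0.0259) and without HL-60 ATRA+ATO replicate 2 (0.0471 and 0.0402). PECAM1 also passed without HL-60 ATRA replicate 3 or untreated HL-60 replicate 2 (0.0116 and 0.0276), and ICAM1 without HL-60 ATO replicate 2 or untreated HL-60 replicate 1 (0.0487 and 0.0345).

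**Figure D4:**
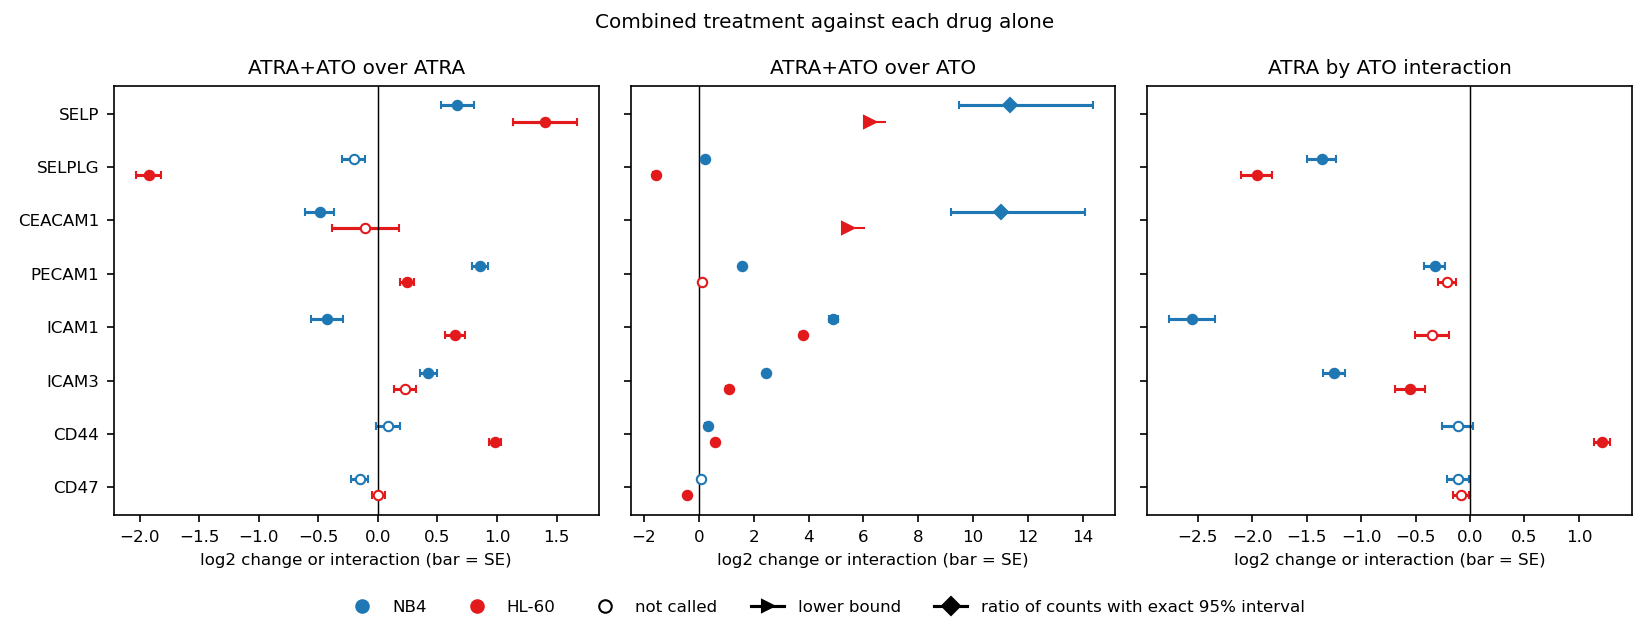
Log2 change of ATRA+ATO over ATRA (left) and over ATO (middle), and the interaction of the 2 drugs (right), for each gene in NB4 (blue) and HL-60 (red), with SE bars; arrows are lower bounds and diamonds ratios of counts with an exact 95% interval. ICAM1 at -2.55 in NB4 and CD44 at 1.21 in HL-60 are the extremes of the interaction.

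The responses of the 2 lines were compared directly, as NB4 minus HL-60, for the 6 genes above the floor in untreated cells. With ATRA the signed difference was above 0 and called for all 6, where 34.5% of 17930 genes differed in either direction. The differences were 3.31 ± 0.24 for ICAM1, 2.05 ± 0.13 for ICAM3, 1.54 ± 0.093 for PECAM1, 1.20 ± 0.14 for SELPLG, 1.04 ± 0.13 for CD44 and 0.52 ± 0.089 for CD47 (adjusted p from 1.42e-14 to 2.01e-05). For CD44 and CD47 the log2 changes had opposite signs in the 2 lines. With ATO, 5 of 6 differed, where 13.1% of genes did (rises were 54.2% of these with TMM and 70.4% without): ICAM1 by 1.15 ± 0.25, SELPLG by 1.15 ± 0.14, ICAM3 by 0.92 ± 0.13, PECAM1 by 0.75 ± 0.093 and CD44 by 0.45 ± 0.12. CD47 did not reach the threshold (-0.10 ± 0.089, adjusted p = 0.534). With ATRA+ATO, 5 of 6 differed, where 47.5% did: SELPLG by 2.95 ± 0.15, ICAM3 by 2.28 ± 0.13, ICAM1 by 2.27 ± 0.24, PECAM1 by 2.19 ± 0.093 and CD47 by 0.40 ± 0.090. CD44 did not reach it (0.18 ± 0.12, adjusted p = 0.258), but did without TMM (0.0356) and without NB4 ATRA+ATO replicate 1 (0.0242).

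In untreated cells 63.2% of genes differed between the lines. Of the 6 genes, ICAM3 (1.13 ± 0.095), ICAM1 (0.89 ± 0.19) and SELPLG (0.62 ± 0.10) were higher in NB4, PECAM1 (-1.95 ± 0.068) and CD47 (-0.47 ± 0.063) were lower, and CD44 was not called (-0.011 ± 0.088; adjusted p = 6.27e-12, 0.00016, 3.06e-06, 2.05e-21, 1.34e-07 and 0.929). For SELP and CEACAM1 the treated groups were set side by side, a comparison added after the data were seen. With ATRA, where 70.1% of genes differed between the lines and where 6 of the 8 were higher and 1 lower in NB4, CEACAM1 was 12.5-fold (3.64 ± 0.18) and SELP 11.3-fold (3.5 ± 0.20) higher in NB4 (adjusted p = 1.51e-15 and 2.78e-14). With ATRA+ATO, where 73.2% of genes differed and 6 of the 8 were higher in NB4, the folds were 9.71 for CEACAM1 and 6.97 for SELP (adjusted p = 1.55e-14 and 4.01e-13), and SELPLG stood 11.9-fold higher in NB4 (adjusted p = 9.21e-23). PECAM1 was lower in NB4 ATRA than in HL-60 ATRA (-0.41 ± 0.064, adjusted p = 1.29e-06) and higher in NB4 ATRA+ATO than in HL-60 ATRA+ATO (0.24 ± 0.063, adjusted p = 0.00131).

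Ordered by CPM over the 8 groups, the 2 NB4 groups with ATRA headed SELP, SELPLG, CEACAM1, ICAM1, ICAM3 and CD44. In that order SELPLG and ICAM1 overlapped between NB4 ATRA and NB4 ATRA+ATO, SELPLG also between NB4 ATRA+ATO and NB4 ATO, CD44 overlapped over NB4 ATRA+ATO, NB4 ATRA and HL-60 ATRA+ATO, and SELP, CEACAM1 and ICAM3 did not overlap between the first 2. PECAM1 was highest in NB4 ATRA+ATO (137 ± 3.60 CPM) and lowest in untreated NB4 (20.3 ± 1.06). CD47 was highest in HL-60 ATO (171 ± 2.28), which overlapped untreated HL-60, and lowest in NB4 ATO (115 ± 6.23), and from NB4 ATRA down each group overlapped the next. Per length, in TPM (counts corrected for gene length and library total), which allow genes to be set beside one another, ICAM1 (1084 ± 302) and ICAM3 (627 ± 67.3) led in NB4 ATRA, and ICAM3 (1001 ± 35.4) and ICAM1 (960.3 ± 72.1), which overlapped, led in NB4 ATRA+ATO. The ICAM3 values are uncertain to the extent of its overlap with AC114271.1. In untreated NB4 CD47 (54.5 ± 2.11) and ICAM3 (52.7 ± 4.54) led with ICAM1 at 6.79 ± 0.978. In HL-60 ATRA+ATO SELPLG was at 7.29 ± 0.98 TPM and SELP at 4.33 ± 0.835, against 22.6 ± 1.92 and 0 in untreated HL-60. In NB4 ATRA+ATO SELPLG was at 113 ± 17.5 TPM and SELP at 40.2 ± 6.85.

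**Figure D5:**
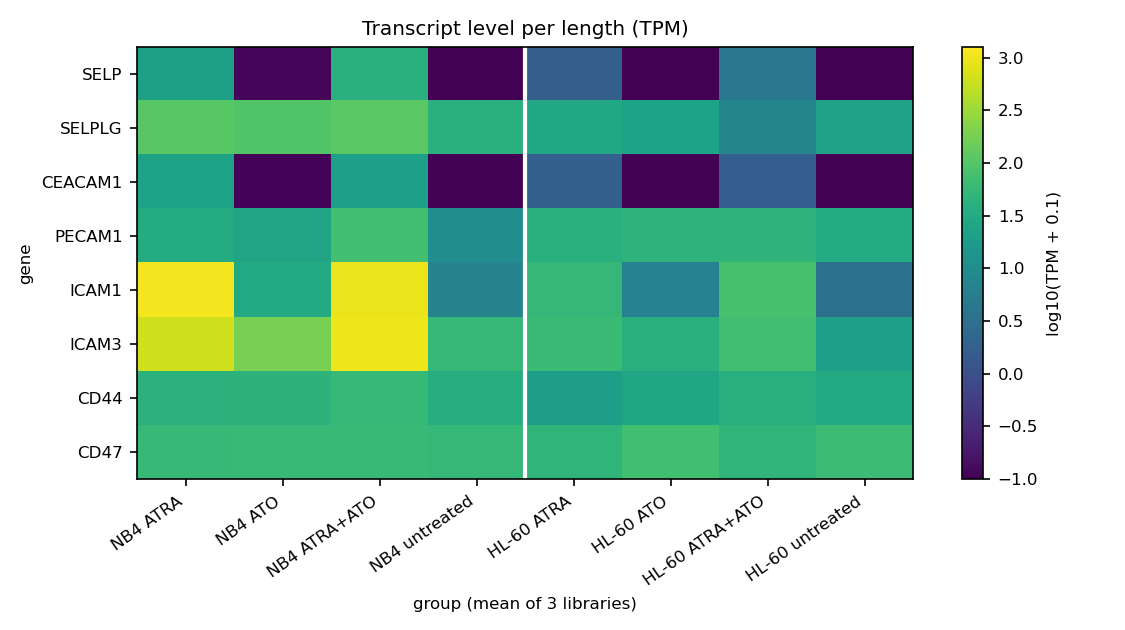
Mean level per length of each gene in each group as log10 of TPM plus 0.1, with NB4 groups at the left and HL-60 groups at the right of the white line. The brightest cells are ICAM1 and ICAM3 in NB4 ATRA and NB4 ATRA+ATO (627 to 1084 TPM), and the darkest are SELP and CEACAM1 in the 4 groups without ATRA.

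As a description over the 8 group means, which share lines and treatments, SELP and CEACAM1 had a Pearson r of 0.984 on log2(mean CPM + 0.5), CEACAM1 and ICAM1 0.966 and SELP and ICAM1 0.96. SELPLG and PECAM1 had -0.175, and CD47 was negative with ICAM3 (-0.535) and with ICAM1 (-0.471). By the same measure the protein-coding gene most like SELP was F5 (r = 0.997), the coagulation factor V gene, which directly follows SELP on chromosome 1 at 169514166 to 169586588, minus strand. F5 averaged 14.5 ± 2.46 CPM in NB4 ATRA+ATO and 11.6 ± 2.05 in NB4 ATRA, against 0.0932 ± 0.124 CPM in untreated NB4. In HL-60 it had 2.53 ± 0.516 CPM with ATRA+ATO and 1.55 ± 0.398 with ATRA, against 0 counts in untreated HL-60. PLIN4 and ARL14EPL came next for SELP (0.994 and 0.993), DAAM2, SLC24A4 and LRRK2 for CEACAM1 (0.999, 0.997 and 0.997), and BAK1, PXN and FLOT1 for ICAM1 (0.996, 0.996 and 0.994). ICAM3 was most like PHYKPL, FCAR and LMTK3 (0.995, 0.994 and 0.992), SELPLG most like PRKCSH, CSK and IRF3 (0.995, 0.984 and 0.977), and PECAM1 was like NBR1 and CD300C (0.988 and 0.984). CD44, with YAF2, UBXN7 and DERL2 (0.942, 0.918 and 0.896), and CD47, with STC2, RHBDF1 and KDM3A (0.984, 0.956 and 0.953), complete the list.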

How the data were processed

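Poly(A) RNA of 24 libraries was sequenced as paired ends, per the labels' protocols. The deposited table holds whole-number counts per gene, and the authors used fastp, HISAT2, featureCounts and DESeq2 with GRCh38, per the submitters' processing notes; versions, annotation release and use of strand were not given in these sources. Of counts from 1 to 9, 74.4% were even, against 51.5% of counts of 500 or more, so mates may have been counted separately and a halved table was an alternative. Ensembl IDs were matched to symbols and lengths with GENCODE 29. Counts were tested with edgeR 4.0.16 (limma 3.58.1, R 4.3.3): filterByExpr, TMM, quasi-likelihood F-test, Benjamini-Hochberg adjustment over all genes tested, 1 fit per line and 1 of all 24 libraries for differences between lines. An SE is the log2 change divided by the square root of F. DESeq2 1.42.0 was an alternative; tables and plots used Python 3.11.15. The fitting code was run on simulated counts in which few genes changed and all genes had the same spread. Such counts do not test the scaling or the gene-wise spread of these data. Against a group at 0 counts, a fold is a bound set with 3 counts per library. All 8 genes passed the filter in both lines. The labels' batch numbers were taken as a possible pairing of the samples. Deviations of same-numbered libraries correlated by -0.0812 to 0.0383 (NB4) and by -0.00807 to 0.0589 (HL-60), and the fit without the batch was the main one. The genes named were the 8 themselves, from each list the 2 measured genes with the smallest p in each treated to untreated comparison (other list genes were chosen after their values were seen), and for each of the 8 the 3 protein-coding genes of highest likeness among those with at least 5 CPM in some group. The 8 genes, lists and markers were chosen with earlier results of these data known. Some genes that these rules select are not reported here.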

Additional observations from a re-analysis of the deposited data

Results flagged for a closer look

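The 2 lines differed in their responses, by a test of the difference itself (edgeR's quasi-likelihood test over all 24 libraries), for 6 of the 8 genes in at least 1 treatment. Of all genes tested, 34.5% differed with ATRA, 13.1% with ATO and 47.5% with ATRA+ATO. With ATRA, the log2 response in NB4 minus that in HL-60 was 3.31 for ICAM1, 2.05 for ICAM3, 1.54 for PECAM1, 1.20 for SELPLG, 1.04 for CD44 and 0.52 for CD47. With ATO it was 1.15 for ICAM1, 1.15 for SELPLG, 0.92 for ICAM3, 0.75 for PECAM1 and 0.45 for CD44. With ATRA+ATO it was 2.95 for SELPLG, 2.28 for ICAM3, 2.27 for ICAM1, 2.19 for PECAM1 and 0.40 for CD47. SELPLG is the one of these whose ATRA+ATO changes were called in opposite directions, a rise of 1.39 in NB4 and -1.54 in HL-60. SELP and CEACAM1 could not be compared in this way, since untreated cells of both lines had 0 counts.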

How the results depend on the processing

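Of 2176 alternative results for single changes, 2085 kept direction and call, 33 lost the call, 35 gained one and 23 turned direction. They were repeats of the same 128 changes. Of these changes, 102 kept direction and call throughout, and 26 did not in at least 1 alternative. The cause was not tested. Of the 2176, 128 were the main fit read at an adjusted p below 0.01. These could only keep or lose a call, and 6 lost it. The replicate block (batch number as a term) changed the calls of CD47 in NB4 ATRA (0.17), ICAM3 in HL-60 ATRA+ATO against ATRA (0.21) and the PECAM1 interaction in HL-60 (-0.21), and no other call of the 8 genes. Without TMM, CD47 became 0.064 in NB4 ATO, -0.033 in HL-60 ATRA+ATO against ATRA and 0.22 between the ATRA+ATO-treated lines (adjusted p = 0.00376). The CD47 value in HL-60 ATRA+ATO against ATRA was also -0.0066 with every gene that had a read and -0.0038 with all 24 libraries. CD44 between untreated lines was 0.025 with DESeq2 and 0.025 with its size factors, 0.14 without TMM, 0.013 with a 1 CPM filter and 0.0003 with halved counts. At an adjusted p below 0.01, genes called numbered 1824 for the NB4 interaction (main 3056), 3020 for HL-60 ATO (4554) and 1344 for the difference in ATO response (2349). Of the 8 genes, 5 were called for the HL-60 interaction without TMM and with every gene that had a read, and 3 to 5 when 1 library was left out. Leaving out 1 library gave -0.039 to 0.082 for CD47 in NB4 ATRA+ATO, -0.035 to 0.23 for CD44 in NB4 ATRA+ATO against ATRA and -0.23 to 0.033 for the CD44 interaction in NB4. It gave -0.0502 to 0.0809 for SELPLG in HL-60 ATO, -0.045 to 0.033 for CD47 and -0.35 to 0.11 for CEACAM1 in HL-60 ATRA+ATO against ATRA. Between lines it gave -0.054 to 0.019 for CD44 in untreated cells and -0.0073 to 0.13 for CD47 in ATRA-treated cells. Without TMM, rises between the ATRA+ATO-treated lines were 61.9% of calls, against 50% with it, and the median of all genes moved by 0.29. Depth limits SELP and CEACAM1 below 3 counts per library.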
